A study of Drosophila melanogaster with 3 samples.

Results

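The Cpr genes of Drosophila melanogaster encode cuticle proteins with the Rebers-Riddiford chitin-binding consensus. Members were the protein-coding genes whose name in the Ensembl annotation of the dm6 assembly begins with Cpr and a digit, which gave 70 of the 13945 protein-coding genes on the 6 chromosome arms. Of these, 35 lay on 3L, 21 on 2R, 5 on 2L, 5 on 3R, 4 on X and 0 on chromosome 4. The question here was where the homeodomain protein achi was bound around them. The data were peak lists from chromatin immunoprecipitation followed by sequencing (ChIP-seq) in 1 group of 3 biological replicates. The animals were whole prepupae, males and females pooled, of unknown age, from 1 transgenic line that stably expresses achi with GFP fused at the C-terminus. The immunoprecipitation used an antibody against GFP, although another label names achi as the antibody's target. All lists were made against the same control, and no immunoprecipitation from animals without the tag was analysed here. Peak lists hold no expression values, so membership of the family rests on the annotation alone, and which of these genes were transcribed in the prepupae was not measured.

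CPR proteins are secreted by the epidermis and bind the chitin fibres of the exoskeleton, and different members go into larval, pupal and adult cuticle. Their genes are switched on and off in step with pulses of the steroid hormone ecdysone, and many lie in tandem clusters. The prepupa is the stage at which the last larval cuticle has become the puparium and the epidermis below it begins the pupal cuticle. Achi is a TALE-class homeodomain protein related to vertebrate TGIF, which binds a core of the letters TGACAG.

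No Cpr gene had a peak at its promoter. Each peak was placed by its summit, the position of highest enrichment, and the authors' optimal list, which keeps peaks that the replicates share under a threshold on the irreproducible discovery rate, held 8998 summits. For a promoter peak the summit had to be at most 500 bp from an annotated transcription start (TSS), and 0 of 70 Cpr genes had one, which by a limit of 3 counts allows a share of up to 4.29%, against 3234 of 13945 protein-coding genes, 23.2%. The limits and the 95% Wilson intervals given here cover counting error only. Cpr genes are short, with a median length of 1094 bp against 2166 bp for all genes, and most have 1 TSS, so the count was repeated among genes with 1 TSS and a length of at most 4739 bp, the 90th percentile of the Cpr genes. In that class 0 of 59 Cpr genes, which allows up to 5.08%, and 1339 of 8499 genes, 15.8%, had a summit at the promoter. In whole animals, binding in few cells and weak binding in many cells cannot be told apart.

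For scale, 2 other families were counted in the same way. Genes for olfactory and gustatory receptors, named Or or Gr, had a promoter summit in 1 of 119 cases (0.840%). Ribosomal protein genes, named RpL or RpS, had one in 65 of 88 cases (73.9%, interval 63.8 to 82.0). The Cpr count was thus near that of the receptor genes. The strongest peak at achi's own promoter had rank 24 of 8998 by signal, 1 being the strongest.

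**Figure D1:**
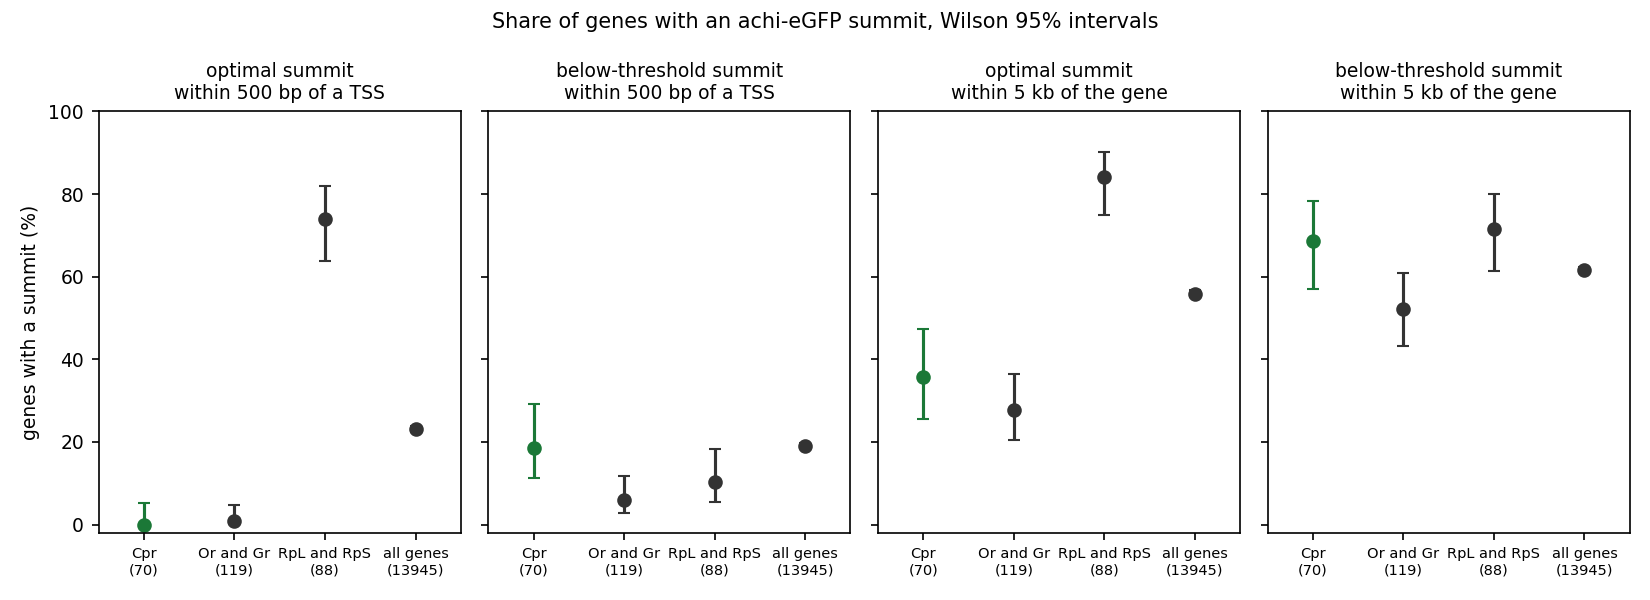
Percentage of genes with a summit, for Cpr genes (green) and 2 other families and all protein-coding genes (dark), with the number of genes in brackets; points are shares and bars are 95% Wilson intervals. Cpr genes stand at 0% for optimal summits at the promoter, against 23.2% of all genes, and at 18.6% against 19.1% for below-threshold summits there.

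The distance from a Cpr TSS to the nearest optimal summit ran from 539 bp at Cpr72Eb to 65976 bp at Cpr92F. The median was 11034 bp (quartiles 3392 and 18906) over Cpr genes and 5084 bp (quartiles 715 and 13500) over all genes. The Cpr median was also above the 6571 bp of the short genes with 1 TSS, and 30.4% of all genes lay at or beyond it. Within 1000 bp there were 4 Cpr genes (5.71%), which were Cpr72Eb at 539 bp, Cpr62Ba at 842 bp, Cpr47Ec at 926 bp and Cpr60D at 977 bp, against 3785 of all genes (27.1%). At the other end, 17 Cpr genes (24.3%) and 2286 of all genes (16.4%) were more than 20 kb from a summit. The farthest were Cpr92F at 65976 bp, Cpr65Av at 45116 bp and Cpr65Aw at 42745 bp, the last a close neighbour of Cpr65Av in the 65A cluster.

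Within 5 kb of the gene body, 25 of 70 Cpr genes (35.7%, interval 25.5 to 47.4) had an optimal summit, against 7799 of 13945 genes, 55.9%. Among genes with 1 TSS and at most 4739 bp long, the counts were 19 of 59 Cpr genes (32.2%) and 4026 of 8499 genes, 47.4%. Receptor genes had 33 of 119 (27.7%) and ribosomal protein genes 74 of 88 (84.1%). No test was made of any of these differences, because the family was chosen with results of these data known.

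**Figure D2:**
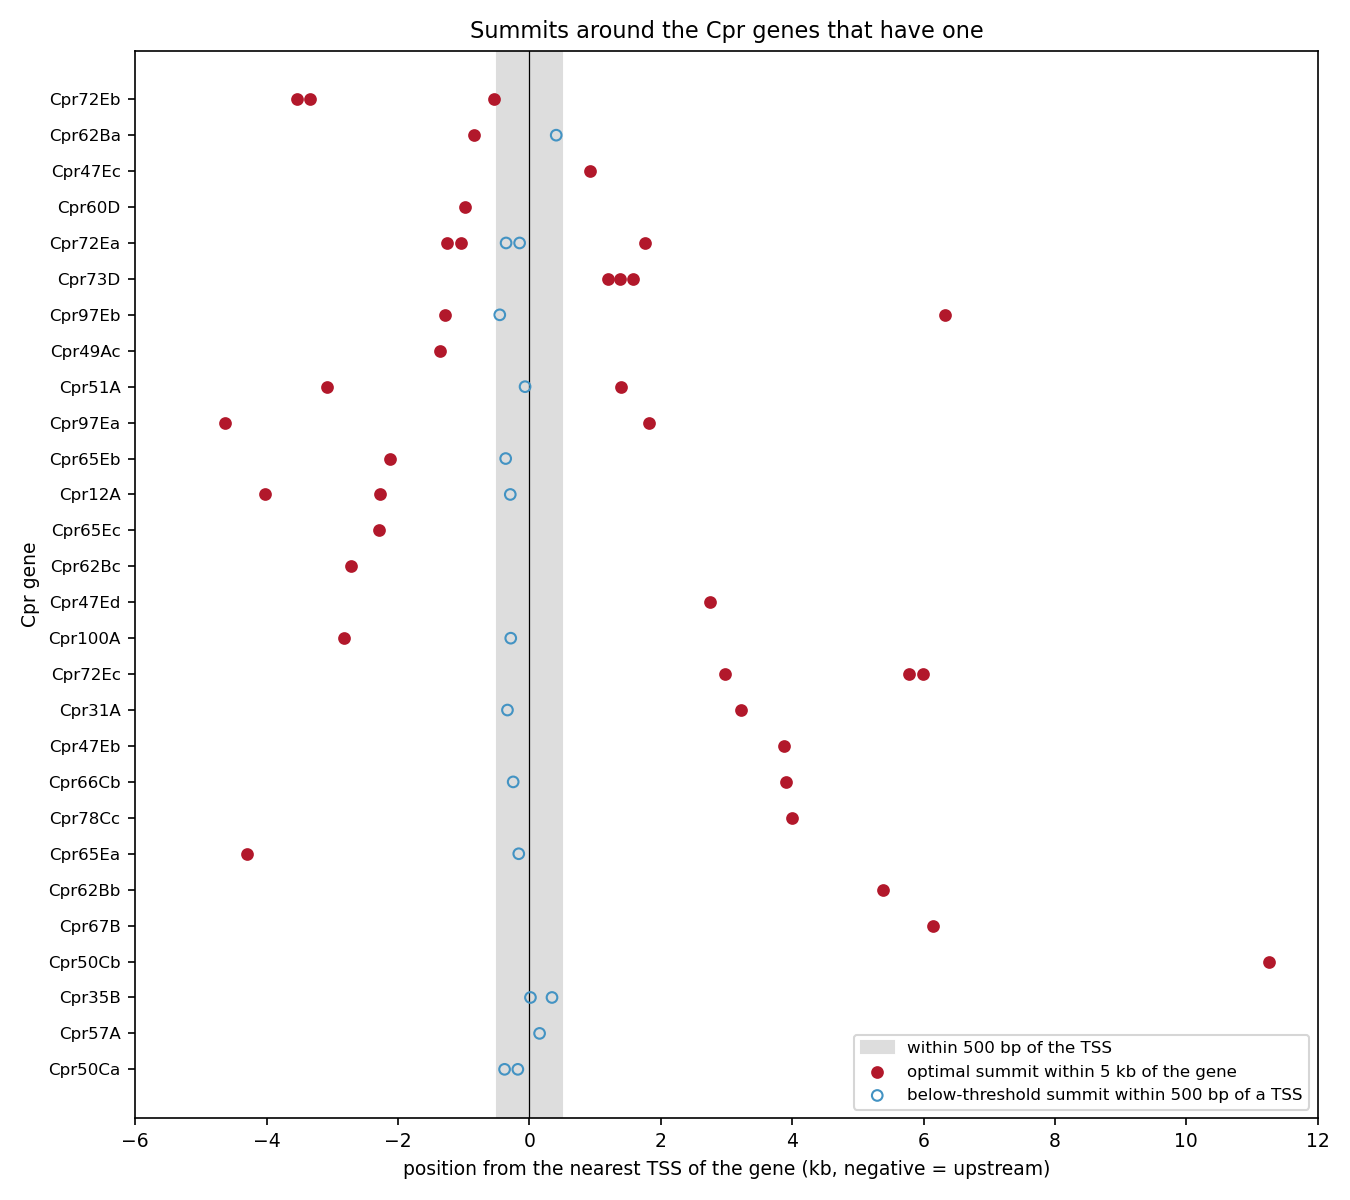
Position of each summit relative to the nearest TSS of the Cpr gene, in kb with upstream to the left, for the 28 Cpr genes that have an optimal summit within 5 kb of the gene (filled) or a below-threshold summit within 500 bp of a TSS (open), ordered by distance to the nearest optimal summit. The grey band spans 500 bp to each side of the TSS and holds open points only.

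These 25 genes shared 24 distinct summits, since a summit in a cluster can lie near several genes. Of the 24 summits, 12 lay between genes, 6 at the promoter of another gene, 5 in an intron of a Cpr gene and 1 inside another gene. Their ranks ran from 131 to 8976 of 8998 with a median of 4975, and 11 of the 24 were in the stronger 50% of the list. By rank, the optimal summits near Cpr genes were therefore of ordinary strength for the list. Each of the 24 peaks overlapped a region in all 3 replicate lists, but the optimal list keeps peaks that the replicates share. How many of all 8998 optimal peaks did so was not counted.

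The strongest of them belonged to other genes by position. The peak near Cpr78Cc, at rank 131, had its summit 83 bp from the TSS of CG11309 and 122 bp from that of CG7632, while the TSS of Cpr78Cc was 3995 bp away. In the 3 replicate lists of 30000 regions each, the overlapping region stood at percent ranks of 99.6, 99.5 and 99.4, 100 being the strongest. The summit near Cpr31A, at rank 376, lay in an intron of Pen, which encodes an importin alpha of nuclear transport, 3228 bp from the Cpr31A TSS. The summit 977 bp upstream of Cpr60D, at rank 937, lay 6 bp from the TSS of CG30161 and 15 bp from that of ND-19, a subunit of the mitochondrial NADH dehydrogenase. The summit near Cpr67B, at rank 2138, lay 99 bp from the TSS of Cpsf5, a factor of mRNA 3' end processing, and 107 bp from that of CG4022. That near Cpr50Cb, at rank 2831, lay 154 bp from a TSS of stj, a calcium channel subunit gene. That near Cpr66Cb, at rank 3871, lay 207 bp from the TSS of CG7083 and 264 bp from that of Prim1, a DNA primase gene. The remaining promoter summit, at rank 6206, lay 219 bp from the TSS of CG30197, a gene within an intron of Cpr51A, and 1400 bp from the TSS of Cpr51A itself.

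Introns of Cpr genes held summits at 3 loci besides Cpr51A. Cpr73D, one of the longest genes of the family at 18590 bp, had 3 intronic summits at ranks 4810, 6585 and 8922, placed 1578, 1378 and 1189 bp from its nearest TSS, and the last also lay in an intron of Ogdh. The first and second of these overlapped the same region in each replicate list, at percent ranks of 84.9, 77.6 and 85.4. Cpr62Ba had an intronic summit at rank 3708, 842 bp upstream of the nearer of its TSSs, with percent ranks of 85.5, 86.4 and 88.2. Cpr97Ea had one at rank 4250, 1813 bp from its nearest TSS, with percent ranks of 84.0, 82.4 and 85.6.

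Summits between genes included those nearest to Cpr promoters. At 72E, where Cpr72Ea, Cpr72Eb and Cpr72Ec lie within 4.74 kb, the summit at rank 1020 lay 1249 bp upstream of Cpr72Ea and a weaker one at rank 8598 lay 1042 bp upstream of it. The summit at rank 1322 lay between Cpr72Ea and Cpr72Eb, 610 bp beyond the end of Cpr72Ea and 539 bp upstream of the Cpr72Eb TSS. Its percent ranks in the replicates were 95.9, 95.8 and 95.1, and those of the region at rank 1020 were 96.1, 96.6 and 96.6, so the replicates placed both near the top of their lists. Elsewhere a summit at rank 1795 lay 3075 bp upstream of Cpr51A, one at rank 5790 lay 1289 bp upstream of Cpr97Eb, one at rank 5140 lay 2278 bp upstream of Cpr12A and one at rank 8976 lay 4028 bp upstream of it. Weaker summits lay 2825 bp upstream of Cpr100A at rank 7497, 1367 bp upstream of Cpr49Ac at rank 8676 and 2708 bp upstream of Cpr62Bc at rank 6773. The 47E summit at rank 5569 was shared by Cpr47Eb, Cpr47Ec and Cpr47Ed, and the 65E summit at rank 5550 by Cpr65Ea, Cpr65Eb and Cpr65Ec, at 4303, 2124 and 2293 bp from their TSSs. In the family, then, peaks were found beside the genes and in introns, and those at a promoter were at the promoter of another gene.

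The sequences at 3 summits are shown, those of the 2 strongest peaks between genes, both at 72E, and that of the strongest below-threshold region at a Cpr promoter, at Cpr12A. Each is the 151 bases centred on the summit, from the Release 6 assembly as distributed by RefSeq (dm6 coordinates), with TATAAA on either strand in capitals.
peak upstream of Cpr72Ea, chr3L:16361279-16361429, plus strand: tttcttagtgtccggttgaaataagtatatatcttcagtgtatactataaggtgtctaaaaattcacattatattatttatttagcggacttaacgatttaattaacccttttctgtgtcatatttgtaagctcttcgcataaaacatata
peak between Cpr72Ea and Cpr72Eb, chr3L:16364285-16364435, plus strand: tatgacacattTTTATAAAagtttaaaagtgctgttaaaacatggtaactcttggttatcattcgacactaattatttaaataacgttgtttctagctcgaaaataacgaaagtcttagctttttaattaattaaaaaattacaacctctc
below-threshold region upstream of Cpr12A, chrX:13543277-13543427, plus strand: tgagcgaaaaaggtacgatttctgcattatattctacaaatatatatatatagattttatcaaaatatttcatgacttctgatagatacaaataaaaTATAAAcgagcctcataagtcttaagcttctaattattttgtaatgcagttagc
The word TGACAG occurred in none of these windows. Within 100 bp of the summit it was found at 1 of the 24 optimal summits near Cpr genes (4.17%), against 705 of all 8998 (7.84%), and at 0 of the 16 below-threshold summits at Cpr promoters, which allows up to 18.8%, against 1481 of all 19378 such summits (7.64%).

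Below the threshold, the share of Cpr promoters was near that of all promoters and above that of short genes with 1 TSS. The pooled list, made from the replicates together, held 30000 regions, and 19378 of them did not overlap an optimal peak. Such a region had its summit within 500 bp of a TSS for 13 of 70 Cpr genes (18.6%, interval 11.2 to 29.2), against 2663 of 13945 genes, 19.1%. Since a promoter with an optimal peak has less room for another region, the count was repeated over the 10711 genes with no optimal summit there, of which 2126, 19.8%, had one. Among genes with 1 TSS and at most 4739 bp long the shares were 18.6% for Cpr genes (11 of 59, interval 10.7 to 30.4) and 10.4% for all genes (887 of 8499). The latter lies just below the Cpr interval, and the difference was not tested. Receptor genes had 7 of 119 (5.88%) and ribosomal protein genes 9 of 88 (10.2%).

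Over any summit of the pooled list, optimal or not, the 13 Cpr genes (18.6%) stood against 5377 of all genes, 38.6%. Among genes with 1 TSS and at most 4739 bp long, the gap was smaller. There 11 of 59 Cpr genes (18.6%, interval 10.7 to 30.4) stood against 2225 of 8499 genes, 26.2%, a share inside the Cpr interval. Within 5 kb of the gene body, 48 Cpr genes (68.6%, interval 57.0 to 78.2) had a below-threshold summit, against 8590 of all genes, 61.6%. The promoter count below the threshold fell where 1 replicate was left out and the summit had to lie in a region of both other replicate lists. Leaving out replicate 1, 2 or 3 gave 10, 7.14 and 7.14% of Cpr genes and 10.9, 11.4 and 12.1% of all genes. This rule adds a filter whichever replicate is left out, so the fall does not show dependence on any 1 replicate.

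The 13 promoters held 16 such regions, of which 12 were upstream of the TSS (the upstream share over all promoters was not counted). Their ranks in the pooled list ran from 10652 to 29930 with a median of 18933, against 19797 for all below-threshold regions. The authors' q-value was at most 0.01 for 1 of the 16 regions and for 1501 of all 19378. That region lay 291 bp upstream of Cpr12A at rank 10652 with a q-value of 0.00897, and the overlapping regions stood at percent ranks of 75.1 in replicate 1 and 59.1 in replicate 2, with none in replicate 3. Next came the region 451 bp upstream of Cpr97Eb at rank 11930, found in all 3 replicates at percent ranks of 48.6, 41.4 and 68.2. Cpr72Ea had regions 355 and 149 bp upstream at ranks 13072 and 14003, both overlapping the same regions of the 3 replicates at 58.9, 64.0 and 42.0. These are ranks in the middle of the replicate lists.

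The other promoters with a below-threshold region were, in order of rank, those of Cpr50Ca (13183 and 24471), Cpr35B (15851 and 27484), Cpr100A (17345), Cpr66Cb (18105), Cpr65Ea (19761), Cpr31A (21827), Cpr51A (23304), Cpr65Eb (27505), Cpr57A (29219) and Cpr62Ba (29930). The region at Cpr35B of rank 15851 lay in its coding exon, and the region at Cpr57A was also at the promoter of Obp57d, an odorant-binding protein gene. Of the 16 regions, 6 overlapped a region in all 3 replicate lists, 7 in 2 lists, 2 in 1 list and 1, at Cpr65Eb, in none. Thus 37.5% were found in all 3 replicates, against 47.0% of all below-threshold regions.

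**Figure D3:**
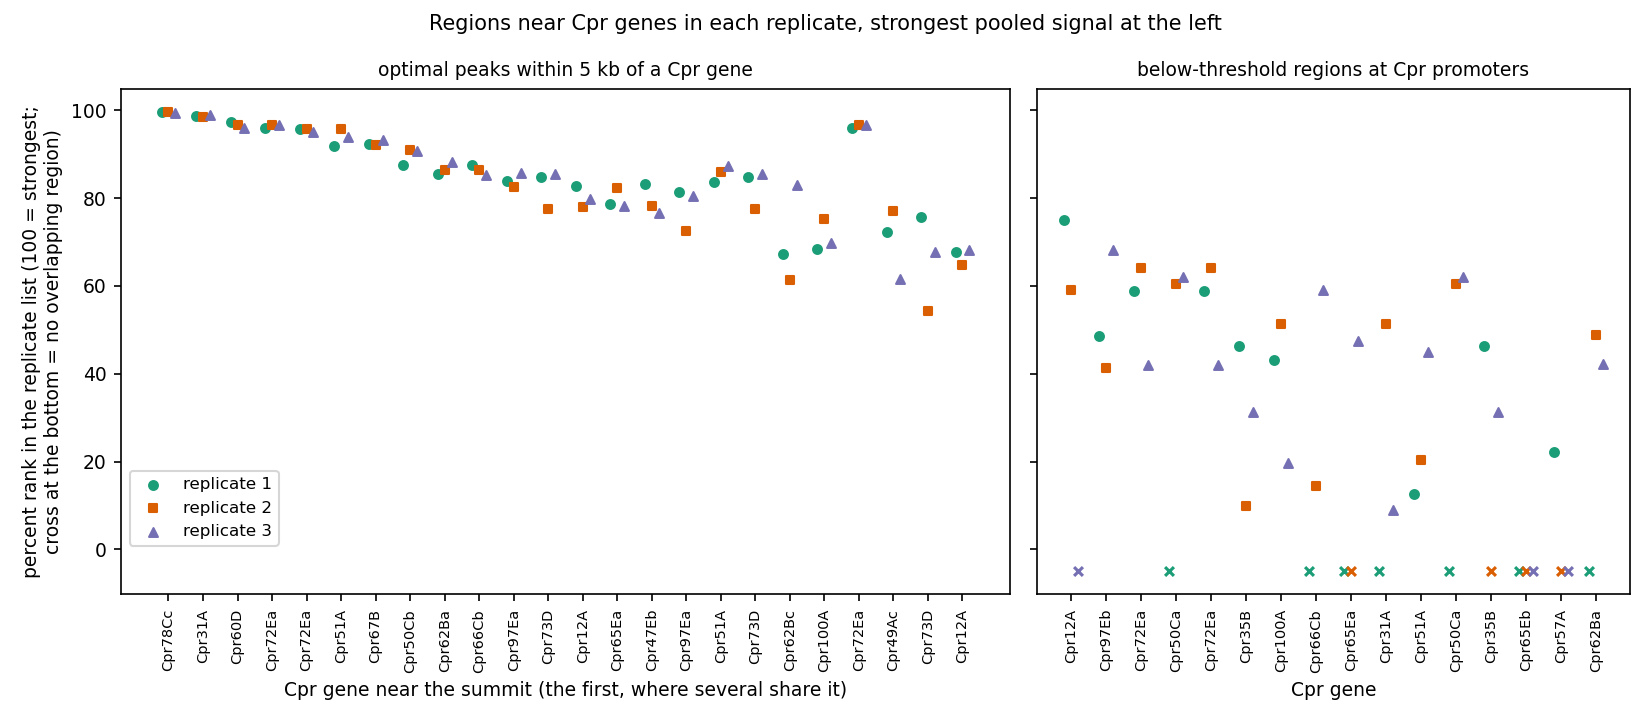
Percent rank, 100 being the strongest, of the region in each of the 3 replicate lists that overlaps each of the 24 optimal peaks within 5 kb of a Cpr gene (left) and each of the 16 below-threshold regions at Cpr promoters (right), in order of pooled rank; crosses mark replicates with no overlapping region. The left panel has no cross, and a region that overlaps 2 pooled regions is drawn at both.

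The replicate lists, taken alone, gave the same order. A region of the replicate had its summit within 500 bp of a TSS for 12, 11 and 16 of 70 Cpr genes in replicates 1, 2 and 3, which is 17.1, 15.7 and 22.9% (mean 18.6 ± 3.78, SD, n = 3). Over all genes the shares were 43.4, 40.7 and 38.7% (mean 40.9 ± 2.37, SD, n = 3), and the ranges did not overlap. Among genes with 1 TSS and at most 4739 bp long the gap was smaller. The shares there were 16.9, 13.6 and 18.6% for Cpr genes and 30.4, 28.3 and 26.4% for all. The replicates count the same genes, so their SD does not cover counting error over genes. Among each replicate's 8998 strongest regions, 2, 0 and 0 Cpr genes had a promoter summit, against 26.6, 23.9 and 22.6% of all genes. Both were in replicate 1, at Cpr73D (rank 6366, 250 bp from a TSS) and Cpr12A (rank 7477, 260 bp from the TSS).

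Few Cpr promoters held a region in every replicate. Regions at the promoter were found in 3 replicate lists for 3 Cpr genes (4.29%) and 31.5% of all genes, in 2 lists for 9 (12.9%) and 8.68%, in 1 list for 12 (17.1%) and 10.96%, and in no list for 46 (65.7%) and 48.9%. The 3 genes found each time were Cpr72Ea, Cpr51A and Cpr100A. The 46 genes in no replicate list also had no pooled region within 500 bp of a TSS.

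Of the 70 genes, 45 lay in 10 clusters, defined as 3 or more Cpr genes with gaps of at most 20 kb between neighbours. The clusters covered 169 kb and held 5 optimal summits, or 2.95 per 100 kb, against 6.72 per 100 kb over the 6 arms. No interval was computed for this density, which rests on 5 summits, and the difference was not tested. Clusters end at the outer genes, so the summits 1249 and 1042 bp upstream of Cpr72Ea are left out. For below-threshold summits the density was 14.2 per 100 kb in clusters (24 summits) and 14.5 per 100 kb over the arms. The 5 clusters at 64A, 65A, 67F, 76B and 78C held no optimal summit. The 5 at 47E, 49A, 62B, 65E and 72E held 1 each. Cluster members had an optimal summit within 5 kb in 14 of 45 cases (31.1%) and other Cpr genes in 11 of 25 (44%), against 55.9% of all genes, while the median distance was 10814 bp in clusters and 11254 bp outside them. A below-threshold summit at the promoter was found for 4 of the 45 cluster genes (8.89%) and 9 of the other 25 (36%), against 19.1% of all genes. Gene length and TSS number were not matched between cluster genes and the others, and the difference was not tested.

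The clusters held 24 other protein-coding genes, of which 11 were cuticle genes under older names, and 10 of these were at 65A. Of the 24, 0 had an optimal summit at the promoter, which allows a share of up to 12.5%, against 3234 of 13875 protein-coding genes outside the family (23.3%). The nearest neighbours of Cpr genes outside the family had one in 6 of 84 cases (7.14%, interval 3.31 to 14.7). Without neighbours that are cuticle genes by older name it was 6 of 76 (7.89%, interval 3.67 to 16.2). The promoter share was thus also low among the nearest neighbours, while 11 of the 24 genes inside clusters were themselves cuticle genes. Gene length and TSS number were not matched in these counts. For 3 Cpr genes the TSS of another gene lay within 500 bp.

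**Figure D4:**
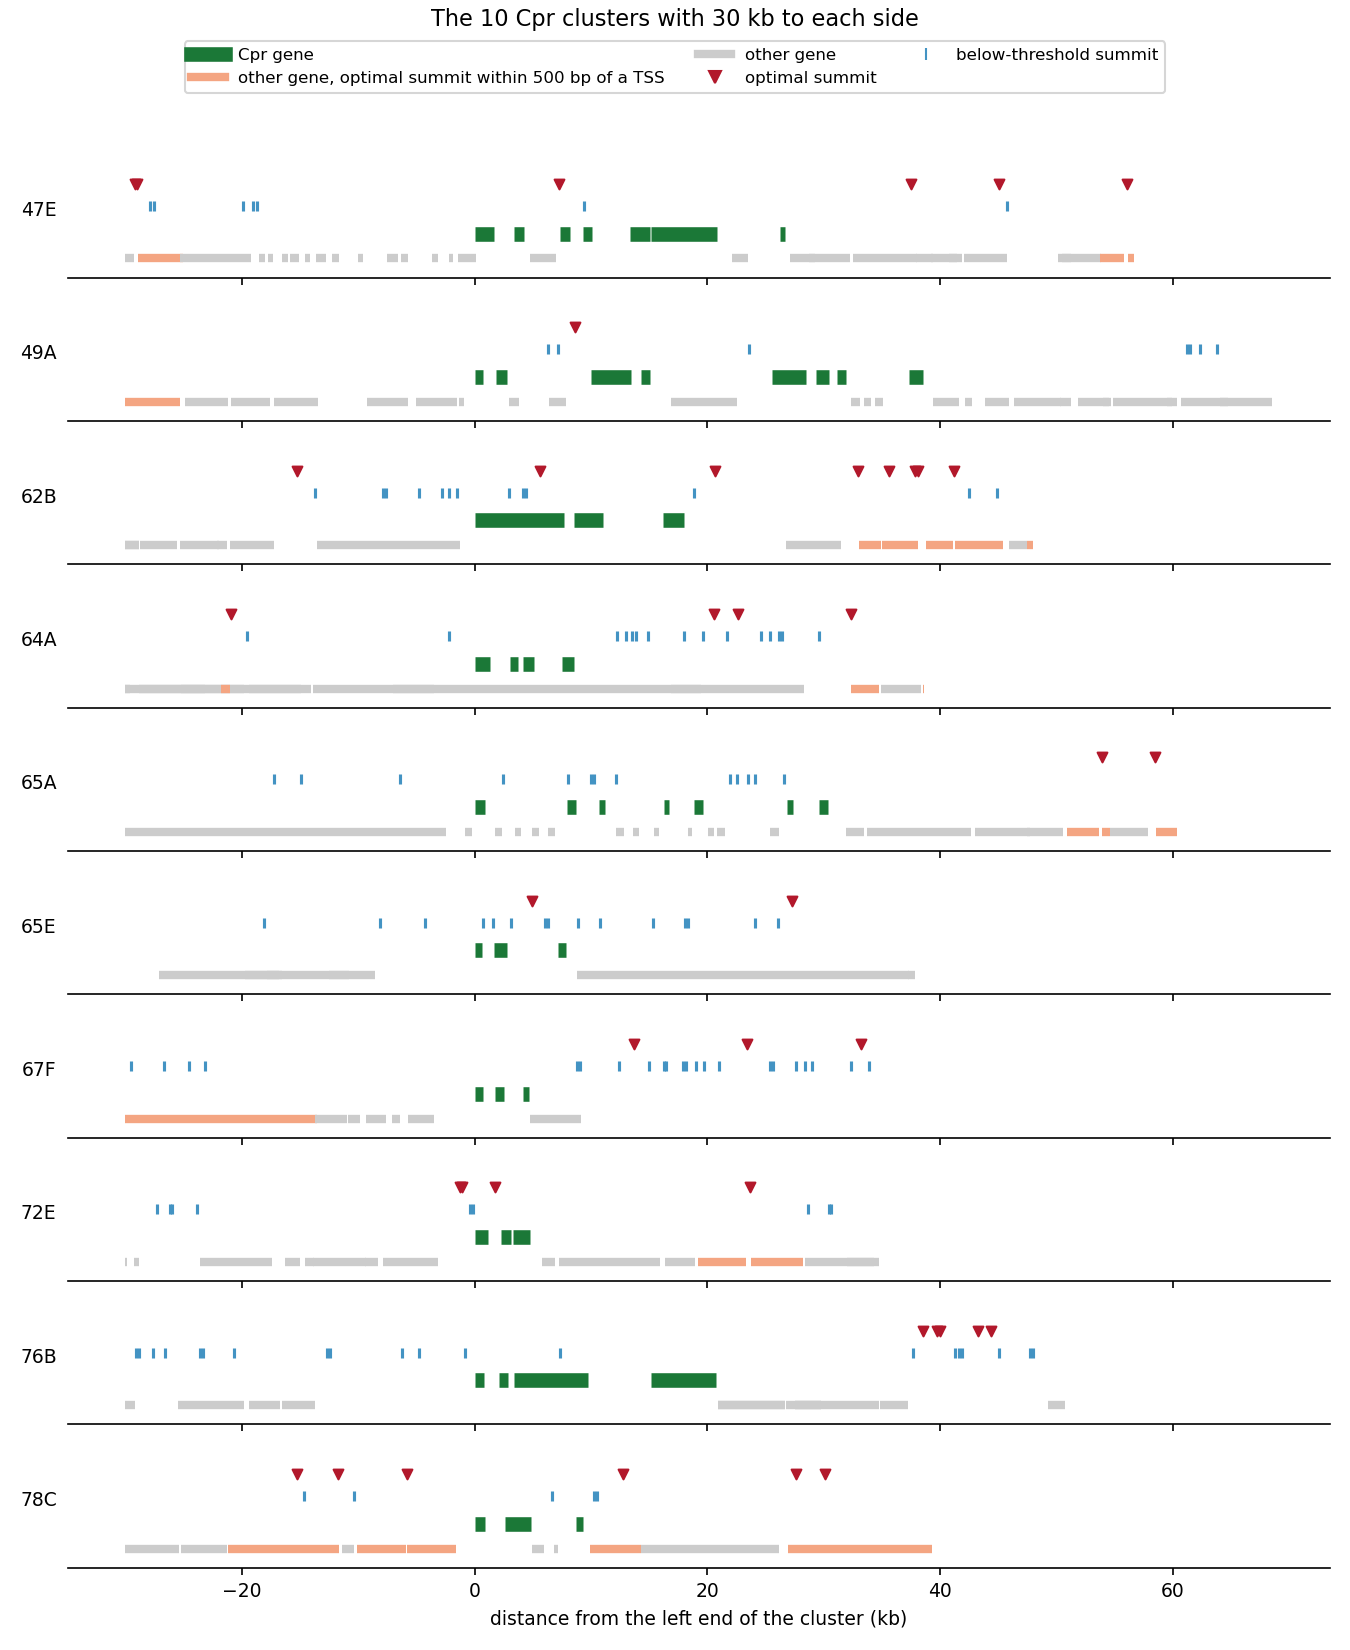
Maps of the 10 Cpr clusters with 30 kb to each side, in kb from the left end of the cluster: Cpr genes in green, other protein-coding genes in grey or, where an optimal summit lies within 500 bp of a TSS, in orange, optimal summits as red triangles and below-threshold summits as blue ticks. Inside the clusters 5 red triangles and no orange gene appear, and the nearest orange genes are those beside 78C.

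The nearest genes with a promoter peak on each side set the clusters in their surroundings. Here and in the next paragraph, distances run from the edge of the cluster to the nearer end of the gene. They are not distances to its promoter peak, which can lie farther away, as at Mp, tna and klu. At 47E these were CG7737 at 25 kb on the left and Fpps, farnesyl pyrophosphate synthase, at 27.1 kb on the right. The peak of CG7737, at rank 958, had percent ranks of 97.1 and 97.2 in replicates 2 and 3 but no overlapping region in replicate 1. At 49A they were ana3, a centriole gene, at 25.3 kb and dgt5, a subunit gene of the microtubule-nucleating augmin complex, at 50.5 kb. At 62B they were PolD2, a DNA polymerase delta subunit gene, at 47.1 kb and CG12024 at 15.1 kb. At 64A they were VhaM9.7-c, a subunit gene of the vacuolar proton pump, at 21.0 kb and Sqor, sulfide quinone oxidoreductase, at 23.8 kb. At 65A they were loj, a p24-family secretory protein gene, at 34.7 kb and D19B, a zinc-finger gene, at 20.6 kb.

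At 65E the flanking genes were Mp, which encodes a collagen, at 32.5 kb and melt, a gene of growth and lipid metabolism, at 40.7 kb. At 67F they were tna at 13.5 kb and klu, a zinc-finger gene, at 86.5 kb. At 72E they were CG13058 at 33.1 kb and Agpat3, an acyltransferase gene, at 14.4 kb. The 76B cluster had the widest margin, with Gbs-76A, a glycogen-targeting phosphatase subunit gene, at 225 kb and CG9231 at 46.8 kb. The 78C cluster had the narrowest, with pzg, a chromatin protein gene, at 1.55 kb and CG11309 at 0.614 kb. No optimal summit lay inside the 78C cluster, and the distance from the Cpr78Ca TSS to the nearest was 6766 bp.

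Other genes of cuticle building were counted in the same way, from lists of symbols. Like the Cpr genes, the 29 genes of the same consensus that keep older names (the Lcp, Ccp84A and related genes) had 0 promoter summits, which allows a share of up to 10.3%, and their median distance to an optimal summit was 27180 bp. Of 50 other cuticle and matrix protein genes, 4 (8%, interval 3.15 to 18.8) had one, against 23.2% of all genes. These 50 genes had a median length of 1530 bp. Of genes with 1 TSS and at most 4739 bp long, 15.8%, inside that interval, had a promoter summit. The 3 strongest were at tyn (rank 1201) and qsm (rank 3084), both genes of zona pellucida domain proteins, and dpy (rank 6049), which encodes a giant apical matrix protein. Of 30 genes of chitin synthesis and modification, 7 (23.3%, interval 11.8 to 40.9) had one, with the strongest at the chitinase-family genes Cht7 (rank 746), Cht11 (rank 1579) and Idgf2 (rank 1590). The list also held kkv, the main epidermal chitin synthase, at rank 5530, a gene named after its value was seen. Of 10 genes of tanning and pigment, 1 (10%, interval 1.79 to 40.4) had one, which was Pu, GTP cyclohydrolase, at rank 5997.

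Of 16 genes for regulators of cuticle genes, 8 (50%, interval 28.0 to 72.0) had an optimal summit at a promoter, against 23.2% of all genes, and all 16 had one within 5 kb, against 55.9%. Their median distance was 429 bp, against 5084 bp over all genes. These genes had a median length of 50553 bp and a median of 3 TSSs, against 2166 bp and 1 TSS over all genes, and the part of length and TSS number in the counts was not tested. The 3 strongest were at Eip75B (rank 545, 21 bp from a TSS), a nuclear receptor gene induced by ecdysone, grh (rank 819, 181 bp), the epidermal factor grainy head, and Eip93F (rank 1832, 52 bp), a later ecdysone-induced factor. Their percent ranks in the 3 replicates were 97.8, 98.7 and 97.7 for Eip75B, 96.5, 97.4 and 97.4 for grh, and 93.8, 93.4 and 94.05 for Eip93F. The other 5 bound genes, named after their values were seen, were Eip74EF (rank 3438), usp (rank 3689), EcR (rank 5325), br (rank 6001) and chinmo (rank 7392). EcR and usp encode the 2 subunits of the ecdysone receptor, and br is the broad gene. The rest of the list, among them ftz-f1, Blimp-1, ovo and ab, had no optimal summit at a promoter.

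Sequence, which the choice of the family did not use, was compared in the promoters. In the 300 bases from 250 before to 50 after the annotated start of the gene, the word TATAAA occurred on either strand in 49 of 70 Cpr promoters (70.0%, interval 58.5 to 79.5), in 45.1% of the promoters of the 3234 genes with an optimal summit and in 45.8% of all 13945. On the gene strand from 40 to 20 bases before the start, where a TATA box lies, the whole word was found in 31 Cpr promoters (44.3%, interval 33.2 to 55.9), against 1.98% of promoters of genes with a summit and 7.06% of all. Among genes with 1 TSS and at most 4739 bp long, the word was in 78.0% of Cpr promoters and 50.2% of all over the 300 bases, and in 49.2 and 9.77% in the narrow window. The 29 older-named genes of the same consensus held it in 82.8% and, in the narrow window, 62.1% of promoters, so it was at least as frequent there as in the Cpr genes. This narrow window was chosen after the data were seen. The GC content was 45.1 ± 6.01% in Cpr promoters, 38.5 ± 7.18% in those with a summit and 39.1 ± 7.74% in all (SD over genes).

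The promoters of 6 genes are shown from 120 bases before to 29 after the TSS on the gene strand, from the same RefSeq assembly, with TATAAA and TGACAG in capitals. They are the 72E cluster, whose peaks are described above, and Cpr65Ea, Cpr31A and Cpr12A, which had a below-threshold region at the promoter.
Cpr72Ea promoter, chr3L:16362483-16362632, plus strand: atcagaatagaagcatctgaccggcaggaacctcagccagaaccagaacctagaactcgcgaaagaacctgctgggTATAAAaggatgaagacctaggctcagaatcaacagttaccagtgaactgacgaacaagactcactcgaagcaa
Cpr72Eb promoter, chr3L:16364779-16364928, plus strand: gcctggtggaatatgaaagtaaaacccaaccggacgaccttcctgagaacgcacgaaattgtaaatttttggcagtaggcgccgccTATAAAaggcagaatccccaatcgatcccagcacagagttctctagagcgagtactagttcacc
Cpr72Ec promoter, chr3L:16367311-16367460, minus strand: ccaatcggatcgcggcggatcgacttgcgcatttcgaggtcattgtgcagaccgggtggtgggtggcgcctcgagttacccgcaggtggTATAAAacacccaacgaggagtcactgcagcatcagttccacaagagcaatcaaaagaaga
Cpr65Ea promoter, chr3L:7086579-7086728, minus strand: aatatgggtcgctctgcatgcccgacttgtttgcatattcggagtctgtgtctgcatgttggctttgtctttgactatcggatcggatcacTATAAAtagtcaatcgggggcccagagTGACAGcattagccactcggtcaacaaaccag
Cpr31A promoter, chr2L:10054093-10054242, plus strand: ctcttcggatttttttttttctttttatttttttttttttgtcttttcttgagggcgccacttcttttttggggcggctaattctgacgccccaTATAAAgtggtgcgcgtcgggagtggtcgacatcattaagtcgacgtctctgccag
Cpr12A promoter, chrX:13543523-13543672, plus strand: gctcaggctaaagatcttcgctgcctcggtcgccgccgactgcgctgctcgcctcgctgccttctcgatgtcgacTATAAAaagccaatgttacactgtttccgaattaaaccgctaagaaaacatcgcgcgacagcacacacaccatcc
Counting the TSS as 0, TATAAA began at -44, -34 and -31 in Cpr72Ea, Cpr72Eb and Cpr72Ec, at -29 in Cpr65Ea, at -26 in Cpr31A and at -45 in Cpr12A. Cpr65Ea held TGACAG at -2 as well.

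The other words searched had lower shares in Cpr promoters than in promoters with a summit, apart from GAGAG, and these differences were not tested. For TGACAG and TAATTA, as for GAGAG, the Cpr interval spans the shares of both other groups. For TATCGATA and CGATAG it lies below them. TGACAG, the TGIF core, occurred in 5 of 70 Cpr promoters (7.14%, interval 3.09 to 15.7), in 14.5% of promoters with an optimal summit and in 11.8% of all, and the 5 genes were Cpr47Ea, Cpr47Ed, Cpr47Ee, Cpr49Ag and Cpr65Ea. TATCGATA, the DNA replication-related element, occurred in 1 Cpr promoter (1.43%), in 13.0% of promoters with a summit and in 9.36% of all. CGATAG, which shares letters with it so that 1 stretch can count for both, occurred in 6 (8.57%), in 26.3% and in 19.5%. TAATTA, a homeodomain core, occurred in 10 (14.3%, interval 7.95 to 24.3), in 21.3% and in 20.4%. GAGAG, the GAGA factor word, occurred in 23 (32.9%), in 32.4% and in 29.7%, with an interval of 23.0 to 44.5% for the Cpr share, which spans the shares of both other groups. All words were searched on both strands, and a match is a description of letters, not a site.

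**Figure D5:**
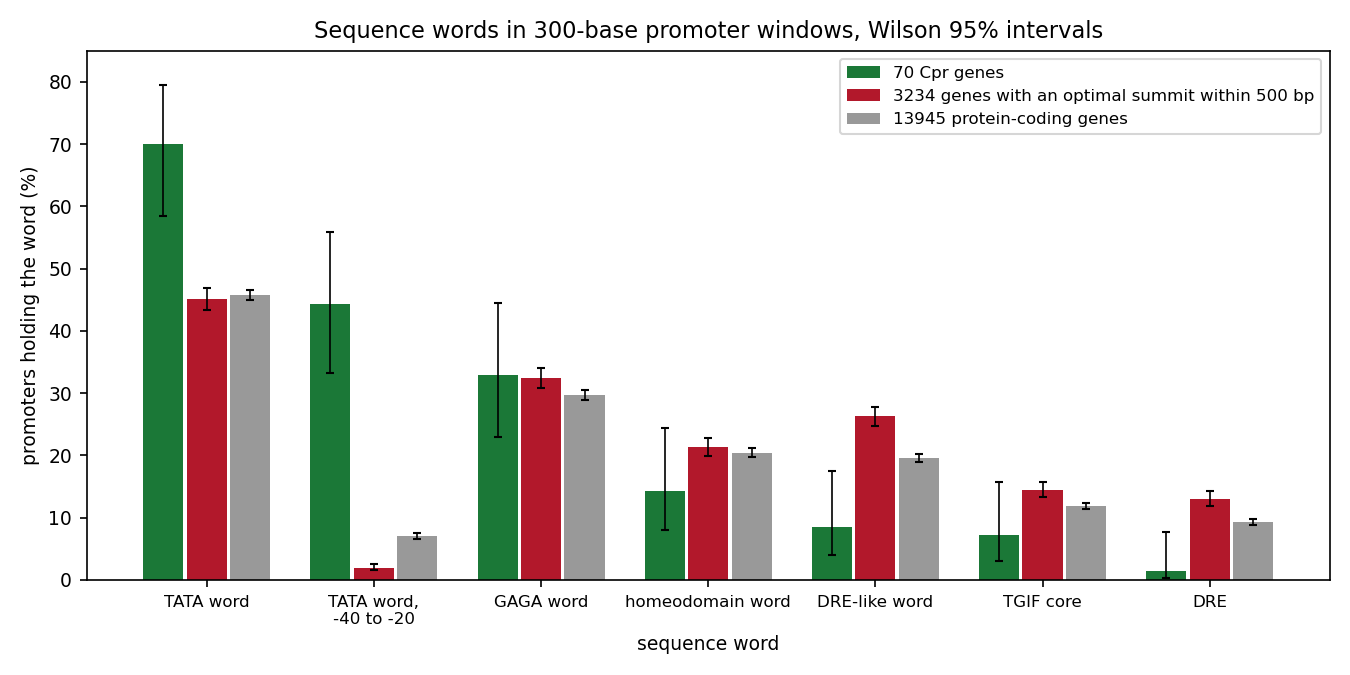
Percentage of promoters, from 250 bases before to 50 after the start, that hold each sequence word, for Cpr genes (green), genes with an optimal summit within 500 bp of a TSS (red) and all protein-coding genes (grey); bars are 95% Wilson intervals. The TATA word between 40 and 20 bases before the start is at 44.3, 1.98 and 7.06% in these 3 groups.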

How the data were processed

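Peak lists in dm6 coordinates were analysed, as deposited by the authors. The file descriptions deposited with them say that the regions of every replicate and of the pool were called against 1 shared control, and that an irreproducible discovery rate threshold gave the optimal list. Which aligner and caller were used is not given in the sources used here. Read depth is unknown. Each region carries the authors' deposited signal value, whose scaling is unstated and which served here for ranks alone, and the authors' deposited -log10 q-value. The lists in dm3 coordinates were not used here. A region was below threshold when it overlapped no optimal peak by 1 bp or more.

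Genes and every annotated TSS came from Ensembl release 115, and sequences from the RefSeq Release 6 genome. Calculations used Python 3.11.15, numpy 2.4.6, pandas 2.3.3, scipy 1.17.1 and matplotlib 3.10.9, and the functions were tested on simulated data. A summit counted for every gene within 500 bp of a TSS or 5 kb of the gene, and percent rank is that of the strongest overlapping region in a replicate's list of 30000. With 1 group no test between conditions was possible, and genes are not replicates, so counts are given with 95% Wilson intervals. The labels do not say whether the replicates came from separate collections.

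The family, the lists and the comparison genes were chosen with earlier results of these data known. Named genes were Cpr genes with an optimal summit within 5 kb (the 20 nearest, to which the remaining 5 were added afterwards) or a below-threshold summit at the promoter, the 3 farthest from a summit, bound genes flanking each cluster, the 3 strongest bound genes of each list, and achi. Cpr47Ea, Cpr47Ee, Cpr49Ag, Cpr78Ca, kkv, EcR, usp, br, Eip74EF, chinmo, ftz-f1, Blimp-1, ovo and ab lay outside this rule and were named after their values were seen. The lists left 6 symbols unmatched, which were not used.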

Additional observations from a re-analysis of the deposited data

How the results depend on the processing

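The summit shares of Cpr genes, their median distance, the number of clusters, the replicate shares and the promoter words were repeated under other settings, changing 1 at a time. Counts of other families, gene lists, neighbours, cluster densities and words at summits were not. The 0% of Cpr genes with an optimal summit at the promoter became 5.71% within 1000 bp (all genes 27.1%) and 1.43% where any base of the peak counted (all genes 24.8%). It stayed 0% with the older-named genes added. It was also 0% within 200 bp, with gene starts only, with nearest genes only, with the stronger 50% of peaks and without each replicate. Those latter settings only narrow the count, so a value of 0 could not change under them. The share with a below-threshold summit at the promoter was 8.57% within 200 bp (all genes 12.8%), 32.9% within 1000 bp (25.2%) and 1.43% at a q-value of at most 0.01 (2.76%). It was 7.14% for regions in all 3 replicate lists (10.8%), a setting chosen after seeing the data, and 7.14 to 10% leaving out 1 replicate (10.9 to 12.1% of all genes), where a summit had to lie in a region of both other lists. The 35.7% with an optimal summit within 5 kb became 20% within 2 kb (41.2%), 17.1% with nearest genes only (27.7%), 20% with the stronger 50% of peaks (41.6%) and 30 to 31.4% without 1 replicate. The 68.6% with a below-threshold summit within 5 kb became 40% with nearest genes only (35.6%), 15.7% at a q-value of at most 0.01 (14.9%) and 54.3 to 55.7% without 1 replicate. The median distance became 20213 bp with the stronger 50% of peaks (9395 bp over all genes) and 12601 to 15116 bp without 1 replicate. With each replicate's strongest regions alone, Cpr shares were 2.86, 0 and 0% in replicates 1, 2 and 3. Clusters numbered 11 with gaps of at most 10 kb and 10 with 50 kb. On the gene strand only, CGATAG was in 2.86% and GAGAG in 11.4% of Cpr promoters (11.8 and 16.7% of all). Stricter settings hold fewer regions by construction, and for the others the cause was not tested. Depth is unknown for these lists, so how weak a region could have been found at a given promoter is not known.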
